A study of Homo sapiens with 7 samples.

Results

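Gene expression was examined in HSC-3 cells 6 h after a heat stress of 42 °C and was compared with HSC-3 cells that had not been heated. HSC-3 is an established line of human oral squamous carcinoma cells, and the study concerns the death of these cells after heat. The heated cells were held at 42 °C for 90 min and then returned to 37 °C for 6 h, and the control cells stayed at 37 °C with no treatment. The comparison takes 2 of the study's 7 Affymetrix whole-genome arrays, named here the 6 h array and the control array. The other 5 arrays held the same cells 0 or 12 h after 42 °C and 0, 6 or 12 h after 44 °C. Each condition had 1 array, so there was no replicate, no test was possible, and every difference is one between a pair of arrays whose number limits the precision.

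Cells answer heat by activating the transcription factor HSF1, which binds heat shock elements, inverted repeats of a short GAA unit, in the promoters of chaperone genes. The chaperones hold or refold damaged proteins. The strictly inducible ones are made in a burst that ends once HSF1 is bound by chaperones again, while other products of the response can outlast it. In squamous carcinoma cells this runs beside programs of inflammation, matrix turnover and division that also respond to stress.

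Values are array intensities in the units deposited, and those under a floor of 21.4 units, the pooled median of all 7 arrays, were raised to that floor. Over the 20902 probe sets that reached the floor on every one of the arrays, the 6 h array lay 0.24 log2 units higher than the control array. The spiked poly-A control probe sets, of which there were 24, lay 0.21 log2 units higher at the median, and the 18 hybridisation control probe sets -0.12. For this reason the words rose and fell are kept for genes that met one criterion, a 2-fold difference or more in the deposited values, with quantile normalized values and with median-shifted values alike. Where 1 of both values was under the floor, the fold is a minimum and is written with the words at least. The median log2 difference of all 13092 genes at or above the floor on either array was 0.20 as deposited, against which the gene lists are read. Squamous markers were present, with KRT14 at 12730.3 on the 6 h array and 11252 on the control array, and all 8 of the markers that had a probe set of their own reached the floor. Of the markers of other cells, 4 of 10 for fibroblasts, 4 of 8 for leukocytes and 2 of 8 for endothelium reached it on either array, none of them past 2-fold. The fibroblast genes DCN, LUM and COL3A1 and the endothelial genes VWF and CDH5 were below it on both.

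Of the 13092 genes, 203 rose (1.55%) and 292 fell (2.23%). The genes that rose were the brighter ones, with a median of 112 units for the higher of both values, against 60.8 units for the genes that fell. Among the 9017 genes that reached 4 times the floor on either array, 133 rose and 80 fell, and of these 22 rose and 15 fell by over 4-fold. The control array was below the floor for 56 of the genes that rose, and the 6 h array for 156 of those that fell. Where a risen gene had further probe sets in range, all of them had the same sign in 49 of 79 cases. For fallen genes this held in 53 of 101 cases.

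**Figure D1:**
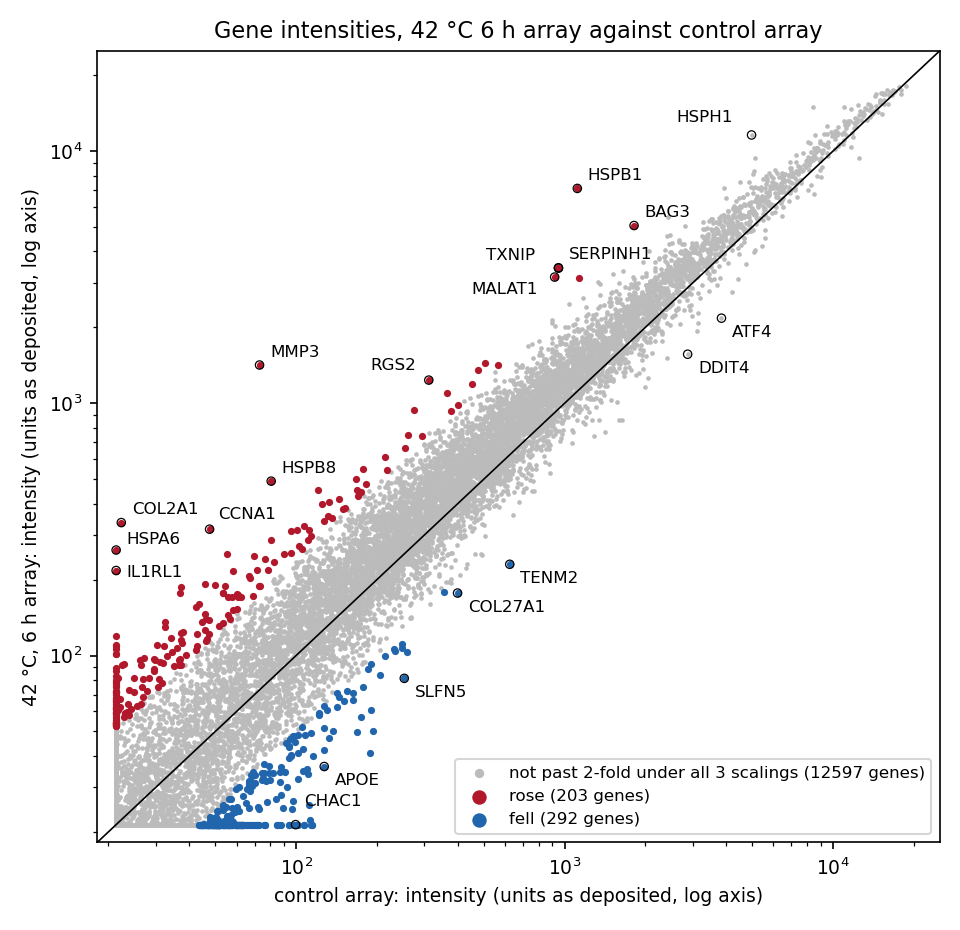
Intensity of each of the 13092 genes on the 6 h array (vertical, log axis) against the control array (horizontal, log axis), with values under the floor drawn at the floor of 21.4 units and the line of equal values in black. Red points mark the 203 genes that rose and blue points the 292 that fell. Most points lie a little above the line, and MMP3, COL2A1, HSPA6 and IL1RL1 stand farthest from it.

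The largest rise was in MMP3, stromelysin-1, a secreted proteinase of the extracellular matrix. It read 1419 on the 6 h array and 73.1 on the control array, a 19.4-fold difference. COL2A1, the type II collagen chain best known from cartilage, read 337 on the 6 h array and 22.3 on the control array (15.1-fold), and its other probe set differed by 3.06 log2 units. IL1RL1, the receptor of interleukin-33, read 217 at 6 h and was below the floor in the control at 18, so it rose at least 10.2-fold. Its other 2 probe sets differed by 1.51 and 1.55 log2 units. CCNA1, a cyclin best known from male germ cells, read 317 on the 6 h array and 47.6 on the control array (6.66-fold). CAVIN2, a coat protein of caveolae, read 188 on the 6 h array and 37.2 on the control array (5.04-fold). Chaperone genes took 3 of the first 7 places. The 15 largest rises also hold the zinc finger genes ZNF488 and ZNF215, PNLDC1, a nuclease related to the poly(A) ribonuclease PARN, the chemokine CCL26, the intronic transcript ALMS1-IT1, the metalloproteinase ADAM33 and the small GTPase ARL9. Apart from ALMS1-IT1 at 178 on the 6 h array and 36.9 on the control array, these read between 102 and 119 units at 6 h and were below the floor in the control.

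**Figure D2:**
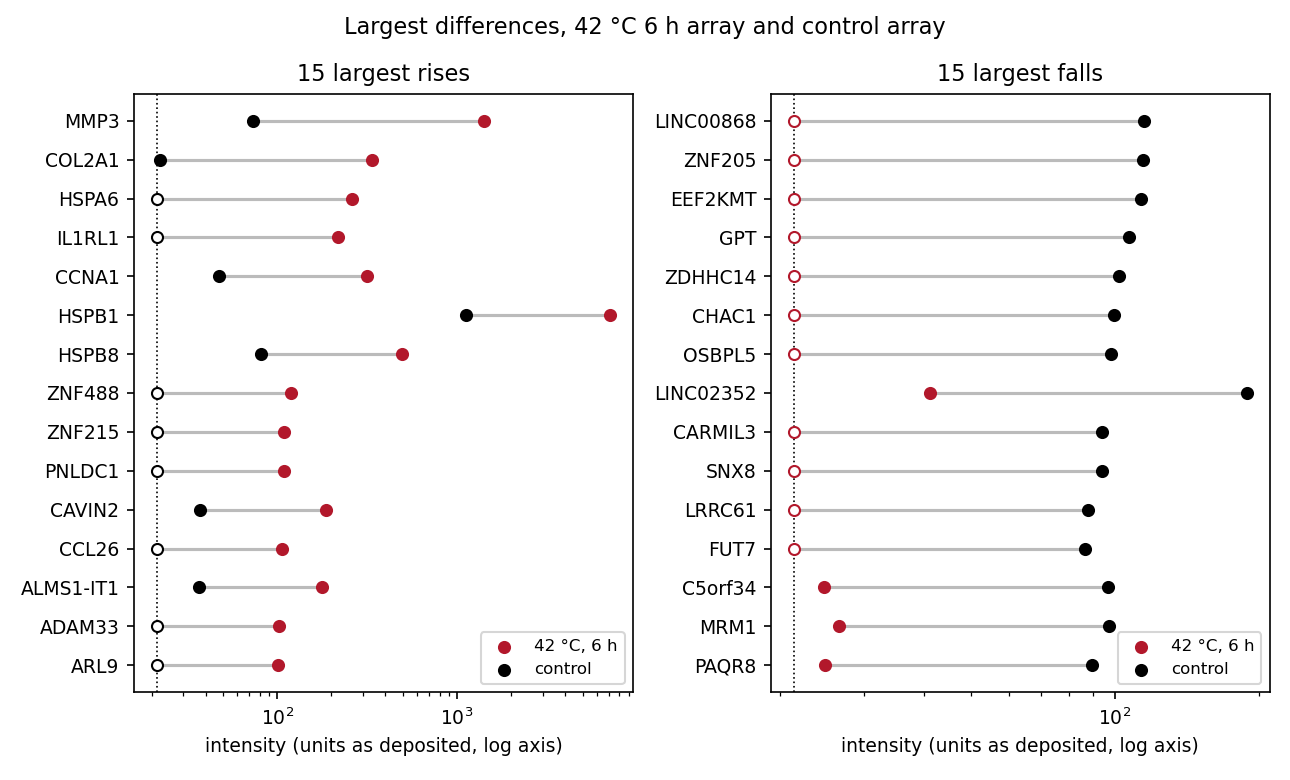
Intensity (log axes) on the 6 h array (red) and the control array (black) for the 15 largest rises at left and the 15 largest falls at right, with open circles for values below the floor (dotted line). MMP3 read 1419 at 6 h against 73.1 in the control, and among the falls LINC02352 was the brightest, at 41.2 at 6 h against 189 in the control.

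HSPA6 had the largest rise of the chaperone genes, but the chaperone list with the highest median was that of the small heat shock proteins. These bind unfolding proteins without using ATP and hold them for refolding. HSPB1, which also protects actin filaments, read 7115 on the 6 h array and 1116 on the control array (6.38-fold). HSPB8, which works with BAG3 in the removal of aggregated proteins, read 491 on the 6 h array and 80.8 on the control array (6.09-fold), while its second, dim probe set differed by 0.27 log2 units. Of 4 small heat shock protein genes in range, HSPB1 and HSPB8 made up the 2 that rose, where 1.55% of all genes rose. CRYAB differed by 0.62. The list median was 1.61 log2 units, against 0.20 for all genes, with the lowest of the 4 members at 0.022.

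The HSP70 machine refolds proteins in cycles of ATP use. HSPA6, its strictly inducible form, read 262 at 6 h and was below the floor in the control at 4.82, a rise of at least 12.3-fold. This was far under its level of 12566 on the 42 °C 0 h array, and at 12 h it read 18.9. HSPA4L, an HSP110 relative that exchanges the nucleotide of HSP70, read 1095 on the 6 h array and 366 on the control array (2.99-fold). HSPH1, the main HSP110 gene, was brighter, with 11590.3 on the 6 h array and 4976 on the control array, and its log2 difference was 1.22 as deposited, 1.07 when quantile normalized and 0.94 when median shifted. It thus missed the criterion under the last scaling alone, and its other 2 probe sets differed by 1.56 and 2.33. The constitutive members lay closer to the control, HSPA4 at 0.39, mitochondrial HSPA9 at 0.23 and HSPA2 at 0.16 log2 units. HSPA1L, next to the main inducible HSP70 genes, read 60.4 at 6 h and 36.1 in the control, against 1008 at 0 h. HSPA8 and the inducible pair HSPA1A and HSPA1B have no probe set of their own and are not given. In all, 2 of 9 members rose and none fell (median 0.74), where 1.55% of all genes rose and 2.23% fell.

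The HSP40 proteins bring substrates to HSP70. DNAJA4 rose among 20 of them and none fell, where 1.55% of all genes rose and 2.23% fell. It read 96.4 on the 6 h array and 36.7 on the control array (2.63-fold). DNAJB1, the main inducible HSP40, read 1354 at 6 h against 881 in the control, a difference of 0.62, after 9949 at 0 h. DNAJB4 read 345 at 6 h against 264 in the control (0.39), after 2453 at 0 h. Its second probe set read 261 at 6 h against 149 in the control (0.81), after 1810 at 0 h. The list median of 0.32 was close to that of all genes.

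BAG3, the HSP70 exchange factor that steers clients to autophagy, read 5070.1 on the 6 h array and 1816 on the control array (2.79-fold). BAG2, which inhibits the chaperone-linked ubiquitin ligase CHIP, read 1162 at 6 h against 566 in the control (1.04 as deposited, 0.76 when quantile normalized and 0.76 when median shifted). Of the 10 members of this list, 9 lay above the all-gene median, with a list median of 0.54. Among 15 genes of HSP90 and its partners 1 rose and none fell, where 1.55% of all genes rose and 2.23% fell. The riser was FKBP4, an immunophilin of steroid receptor complexes, with 3135 on the 6 h array and 1133 on the control array (2.77-fold). A second bright FKBP4 probe set differed by 1.16, and the other 2, both dim, by -0.033 and -0.54. CHORDC1, another HSP90 partner, read 2971 at 6 h against 1361 in the control (1.13 as deposited, 0.89 when quantile normalized and 0.84 when median shifted). HSP90AA1, the inducible HSP90 itself, read 14838 at 6 h against 13220.2 in the control, and HSP90AB1 differed by 0.71. HSF1 read 298 at 6 h against 242 in the control.

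Outside these lists, and chosen after their values were seen, SERPINH1, the collagen chaperone of the endoplasmic reticulum, read 3448 on the 6 h array and 949 on the control array (3.63-fold). ZFAND2A, an arsenite- and heat-inducible partner of the proteasome, read 988 on the 6 h array and 400.1 on the control array (2.47-fold). CLU, the secreted chaperone clusterin, read 418 at 6 h against 144 in the control (2.9-fold), with 2 of its 3 other probe sets of the same sign. In the mitochondria, HSPE1 differed by 0.74 and HSPD1 by 0.44, and none of 13 chaperones and proteases rose or fell. The TRiC chaperonin and prefoldin list had a median of 0.23, with 0 of 12 past the criterion, where 1.55% of all genes rose and 2.23% fell.

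**Figure D3:**
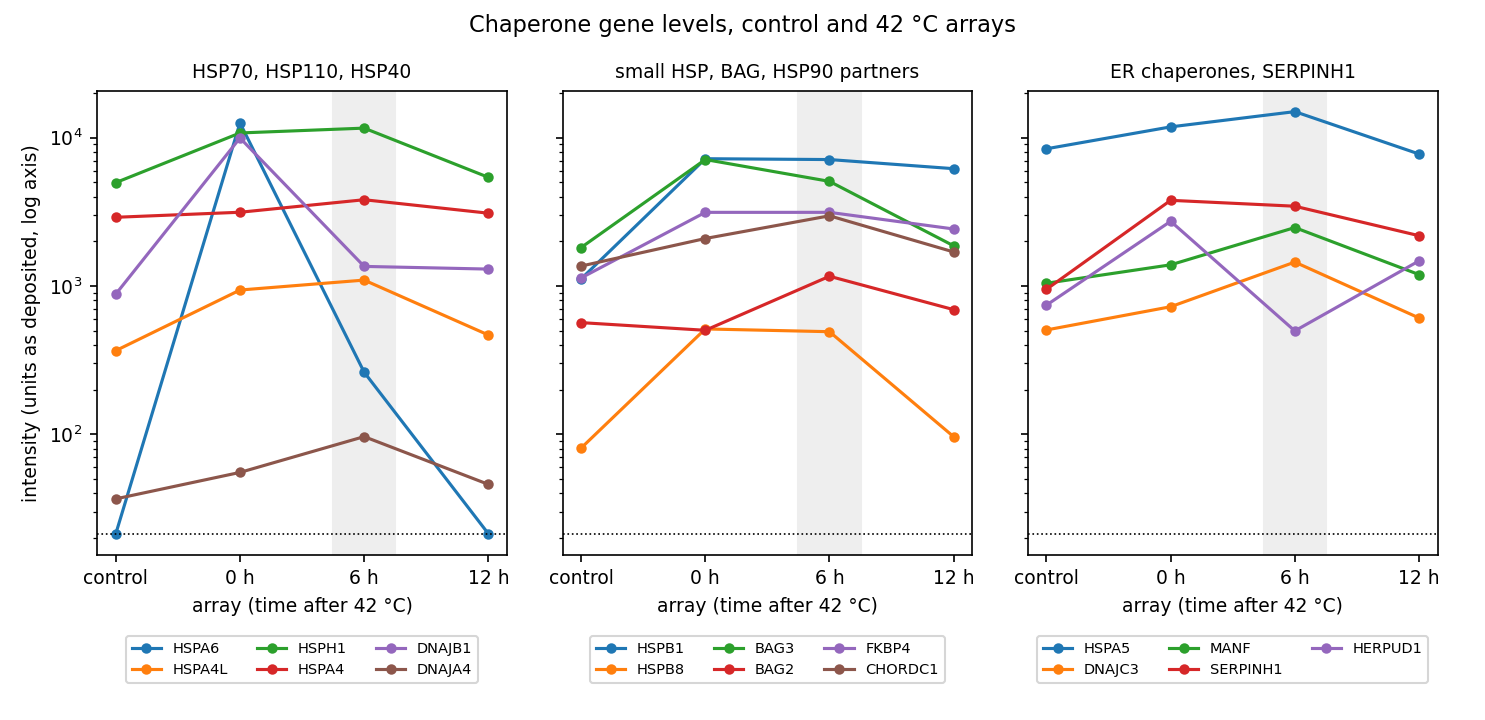
Intensity (log axis) of 17 chaperone genes across 4 arrays, the control and 42 °C at 0, 6 and 12 h, with the 6 h array shaded and the floor dotted. HSPA6 and DNAJB1 peak at 0 h, HSPB1, HSPB8 and FKBP4 are about as high at 6 h as at 0 h, and HSPA5, DNAJC3, MANF, BAG2 and CHORDC1 are highest at 6 h.

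The promoters of these genes were searched for heat shock elements, since the elements are what HSF1 binds. Promoter windows, from 250 bases before to 50 after each annotated start, came from RefSeq (GRCh38.p14) and covered 156 of the 203 genes that rose and 224 of the 292 that fell. An element was counted as 2 inverted units, GAANNTTC or TTCNNGAA, each of which reads the same on both strands, and as 3 alternating units where a further unit followed or preceded it after 2 bases. The 2-unit form was present in 27 of 254 windows of risen genes (10.6%), 24 of 312 windows of fallen genes (7.69%) and 10.6% of the 15249 windows of all genes tested. It was in 13.5% of all 35116 windows in the table. The 3-unit form was in 3 windows of risen genes (1.18%), 1 of fallen genes (0.321%) and 0.367% of the windows of genes tested. The AP-1 site, TGAGTCA or TGACTCA, was in 3.94% of windows of risen genes, 3.53% of those of fallen genes and 3.69% of those of genes tested. A match describes the letters in the window and is not a shown site. The stretches printed are from chaperone and related genes that rose and had an element in a window, followed by those of DNAJB1 and HSP90AA1, which did not meet the criterion at 6 h. They run 5′ to 3′ on the strand of the gene, and capitals mark the element units and, in HSPA6, also an AP-1 site. A second AP-1 site of HSPA6 lies outside the printed stretch.
HSPA6 (chr1:161524345-161524493, plus strand): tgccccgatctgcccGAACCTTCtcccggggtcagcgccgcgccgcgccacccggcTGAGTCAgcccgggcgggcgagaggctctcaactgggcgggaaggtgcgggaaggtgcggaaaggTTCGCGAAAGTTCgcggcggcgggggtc
HSPA4L (chr4:127782137-127782174, plus strand): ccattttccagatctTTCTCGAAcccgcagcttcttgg
HSPB1 (chr7:76302476-76302513, plus strand): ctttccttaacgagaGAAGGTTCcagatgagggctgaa
HSPB8 (chr12:119178828-119178957, plus strand): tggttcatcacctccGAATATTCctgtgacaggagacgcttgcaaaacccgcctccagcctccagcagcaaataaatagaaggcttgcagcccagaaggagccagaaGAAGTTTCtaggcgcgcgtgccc
DNAJA4 (chr15:78264456-78264532, plus strand): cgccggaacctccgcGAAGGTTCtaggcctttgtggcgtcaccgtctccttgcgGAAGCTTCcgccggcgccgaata
SERPINH1 (chr11:75562162-75562204, plus strand): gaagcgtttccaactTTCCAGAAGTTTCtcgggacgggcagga
ZFAND2A (chr7:1160345-1160382, minus strand): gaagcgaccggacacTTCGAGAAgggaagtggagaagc
DNAJB1 (chr19:14518422-14518489, minus strand): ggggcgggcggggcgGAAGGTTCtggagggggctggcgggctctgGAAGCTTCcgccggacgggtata
HSP90AA1 (chr14:102087090-102087147, minus strand): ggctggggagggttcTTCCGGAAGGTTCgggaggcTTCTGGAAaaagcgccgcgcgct
HSPA6 and SERPINH1 hold the 3-unit form, and so does HSP90AA1, whose level at 6 h was 1.12-fold that of the control. Among the other genes that rose or fell, JAK3, which rose, and TMEM95, which fell, hold the form and are named only for it. The windows of BAG3 and DNAJC3, which both rose, hold neither form, and FKBP4 and CLU had no window in the table used.

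Chaperones of the endoplasmic reticulum fold secreted and membrane proteins and are raised by the unfolded protein response. Of 21 genes of that response, 17 lay above the all-gene median, and the list median was 0.67 as deposited, 0.37 when quantile normalized and 0.39 when median shifted. The criterion was met by DNAJC3 alone, where 1.55% of all genes rose and 2.23% fell. This cochaperone, which also inhibits the kinase PERK, read 1448 on the 6 h array and 505 on the control array (2.87-fold). Its other 3 probe sets differed by 1.05 to 1.73. MANF, a secreted stress factor, read 2475 at 6 h against 1043 in the control (1.25 as deposited, 1.04 when quantile normalized and 0.96 when median shifted). HSPA5, the HSP70 of this compartment, read 14974 at 6 h against 8410.4 in the control, a difference of 0.83 on its bright probe set. Its other probe set read 1832 at 6 h against 178 in the control (3.36). SDF2L1, HSP90B1, PDIA4 and SEL1L, which serve folding and disposal there, differed by 0.96, 0.93, 0.93 and 0.86. On the other side stood HERPUD1, an adaptor of protein degradation, at 498 at 6 h against 742 in the control (-0.58), after 2728 at 0 h, and the transcription factor XBP1 at 1077 at 6 h against 1398 in the control (-0.38).

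The genes of the ATF4 integrated stress response lay lower than the control at the median. ATF4 drives amino acid supply and, when the stress is long, death genes. ATF4 itself read 2176 at 6 h against 3843 in the control (-0.82 as deposited, -1.15 when quantile normalized and -1.10 when median shifted). CHAC1, its target that degrades glutathione, read 3.61 at 6 h, below the floor, against 99.5 in the control, so it fell at least 4.66-fold. It was the 1 member of 16 to meet the criterion, where 1.55% of all genes rose and 2.23% fell. Of the 16, 3 members lay above the all-gene median. DDIT4, an inhibitor of mTOR, read 1566 at 6 h against 2875 in the control (-0.88 as deposited, -1.22 when quantile normalized and -1.16 when median shifted). CEBPB, a partner of ATF4, differed by -0.69 and DDIT3, the death factor CHOP, by -0.19. ATF3 differed by -0.49 on its brighter probe set and by 0.23 on the other in range. SLC7A11, the cystine transporter, and TRIB3 were above the control instead, by 0.53 and 0.46. The list median was -0.23 as deposited and -0.38 after quantile normalization. Amino acid transport and serine synthesis genes and aminoacyl-tRNA synthetases, many of them ATF4 targets, had medians of 0.064 and 0.084 with none past the criterion.

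Inflammatory genes moved in both directions. IL6, a cytokine of acute inflammation, rose 2.81-fold, reading 254 on the 6 h array and 90.2 on the control array. CCL26, a chemokine of eosinophils, read 106 at 6 h and was below the floor in the control (at least 4.98-fold). CCL20, which attracts cells with the receptor CCR6, fell 2.01-fold, reading 70.8 on the 6 h array and 143 on the control array. LIF, an interleukin-6 family cytokine, was below the floor at 6 h at 17.2, against 51.6 in the control (lower by at least 2.42-fold). The neutrophil chemokines lay lower without meeting the criterion, CXCL1 at 862 at 6 h against 1597 in the control, CXCL3 at 94.2 at 6 h against 177 in the control and CXCL8 at 3113 at 6 h against 4439 in the control. After quantile normalization CXCL1 differed by -1.27 and CXCL3 by -1.13. TNF, which had read 50.5 at 0 h, was at 389 at 6 h against 377 in the control. IL1A and IL1B, at 424 and 889 at 0 h, read 3968 and 4315 at 6 h, against 2859 and 2986 in the control. Of 15 NF-kB chemokines and cytokines, 1 rose and 2 fell, where 1.55% of all genes rose and 2.23% fell. The median of these 15 was -0.40. Among the NF-kB subunits and feedback regulators, NFKBIB, an inhibitor of NF-kB, fell 2.09-fold on its brightest probe set, while its other 2 differed by 0.57 and 1.54, so the direction rests on the probe set. NFKBIA and TNFAIP3, its feedback inhibitors, differed by 0.069 and -0.18, and their other probe sets by -0.55 and 0.045. LTB, a lymphotoxin chosen after its value was seen, fell to 62.6 at 6 h, against 143 in the control, and its second probe set differed by -1.18. Interferon response genes included none past the criterion among 21, the highest being IFIT1 at 148 at 6 h against 66.9 in the control (1.14).

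Among matrix and epithelial genes, MMP3, COL2A1, KRT7 and KLK6 rose and COL27A1 and KLK7 fell. Next to MMP3, the related proteinases MMP10 and MMP1 differed by 0.55 and 0.029, the urokinase gene PLAU by -0.083, and the inhibitor TIMP2 by 0.88. MMP3 was the 1 of 14 genes for matrix proteinases and plasminogen activation that rose, where 1.55% of all genes rose and 2.23% fell. Of 13 collagen genes COL2A1 rose and COL27A1, a fibrillar chain, fell, reading 177 on the 6 h array and 399.5 on the control array. Its other 2 probe sets differed by -0.15 and 0.095. The collagen list median was -0.22. Among epithelial keratins KRT7, a keratin of simple epithelia, rose 2.59-fold to 91.1 at 6 h, against 35.1 in the control, and the basal keratins KRT5 and KRT14 differed by 0.32 and 0.18. Of the kallikrein proteinases of shedding squamous epithelium, KLK6 read 89.5 at 6 h and was below the floor in the control (at least 4.19-fold), whereas KLK7 fell to 22.3 at 6 h, against 49.2 in the control. The second KLK7 probe set had the opposite sign. TENM2, a membrane protein of cell adhesion chosen after its value was seen, fell 2.72-fold, with 230.0 on the 6 h array and 625 on the control array.

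**Figure D4:**
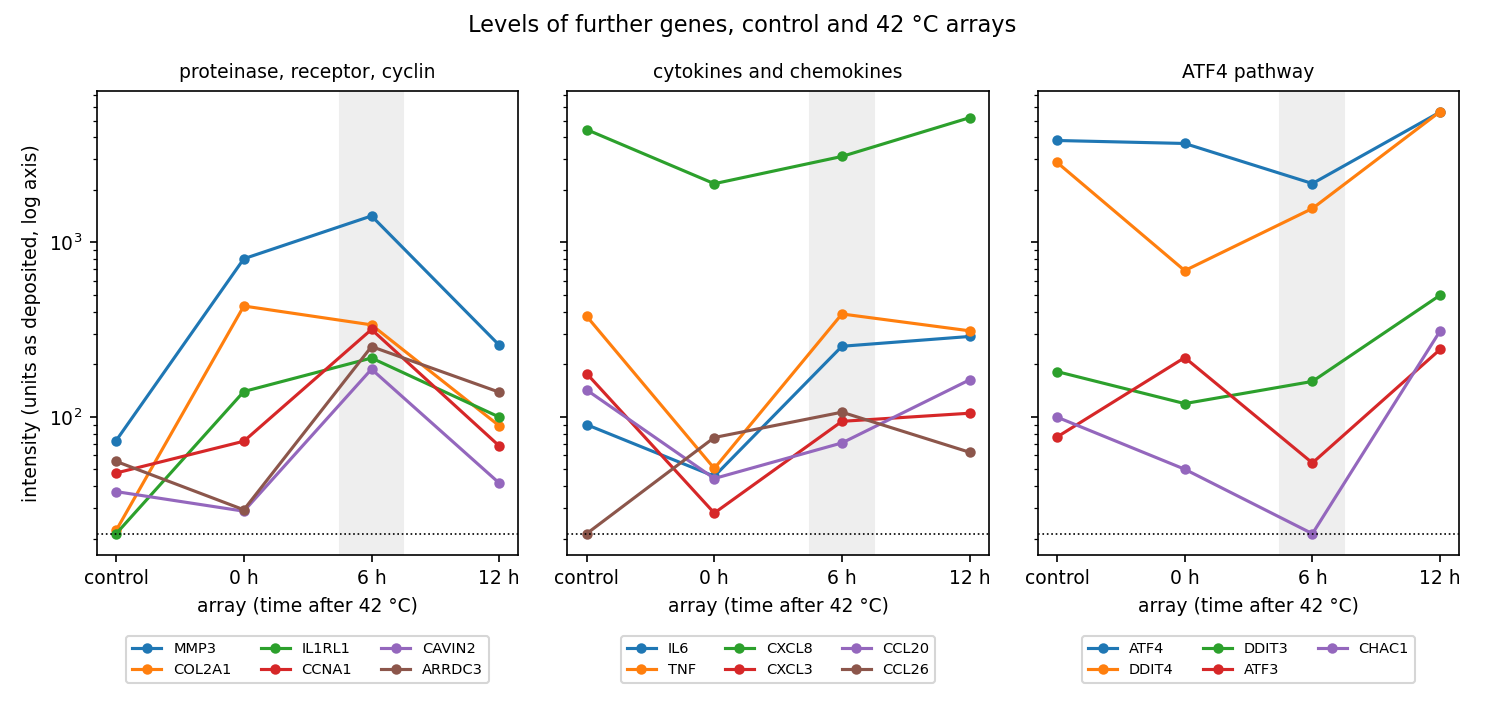
Intensity (log axis) of 17 further genes across 4 arrays, the control and 42 °C at 0, 6 and 12 h, with the 6 h array shaded and the floor dotted. MMP3, IL1RL1, CCNA1, CAVIN2 and ARRDC3 are highest at 6 h, IL6 is high at 6 and 12 h, and CHAC1 and ATF4 are lowest at 6 h and highest at 12 h.

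Genes of mitosis and of DNA replication lay on different sides of the all-gene median. None of 36 mitosis genes and none of 36 replication genes met the criterion, where 1.55% of all genes rose and 2.23% fell. Yet 32 of the 36 mitosis genes lay above the all-gene median, against 8 of the 36 replication genes. The mitosis median was 0.44 as deposited and 0.21 after quantile normalization, and the replication median -0.097 and -0.38. CDC25B, the phosphatase that opens mitosis, read 1689 at 6 h against 729 in the control (1.21 as deposited, 0.96 when quantile normalized and 0.93 when median shifted). PLK1, the polo kinase, read 780.0 at 6 h against 353 in the control (1.14), and KIF20A, a kinesin of cytokinesis, 2016 at 6 h against 1003 in the control (1.01). AURKA and TOP2A differed by 0.79 and 0.84, but CCNB1, CCNB2 and HMMR by no more than 0.37. CDK1 differed by 0.41 on its brightest probe set and by 0.85 to 1.09 on the other 3. On the replication side, GINS4, a subunit of the replicative helicase, read 160.5 at 6 h against 316 in the control (-0.98 as deposited, -1.25 when quantile normalized and -1.26 when median shifted). Its other 3 probe sets differed by -0.60 to 0.51, and 2 of them had the same sign. The helicase subunits MCM2, MCM3, MCM5 and MCM6 differed by -0.055, -0.078, -0.20 and -0.24, and MCM7 by 0.50. CDT1, which loads that helicase, differed by -0.34 on its brighter probe set and by 0.75 on the other, and RRM2, of ribonucleotide reductase, by -0.16. CCNA1 was the only 1 of 23 genes of G1 cyclins, E2F and CDK inhibitors to meet the criterion, and CDKN1A, the p53-driven inhibitor, differed by -0.25.

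**Figure D5:**
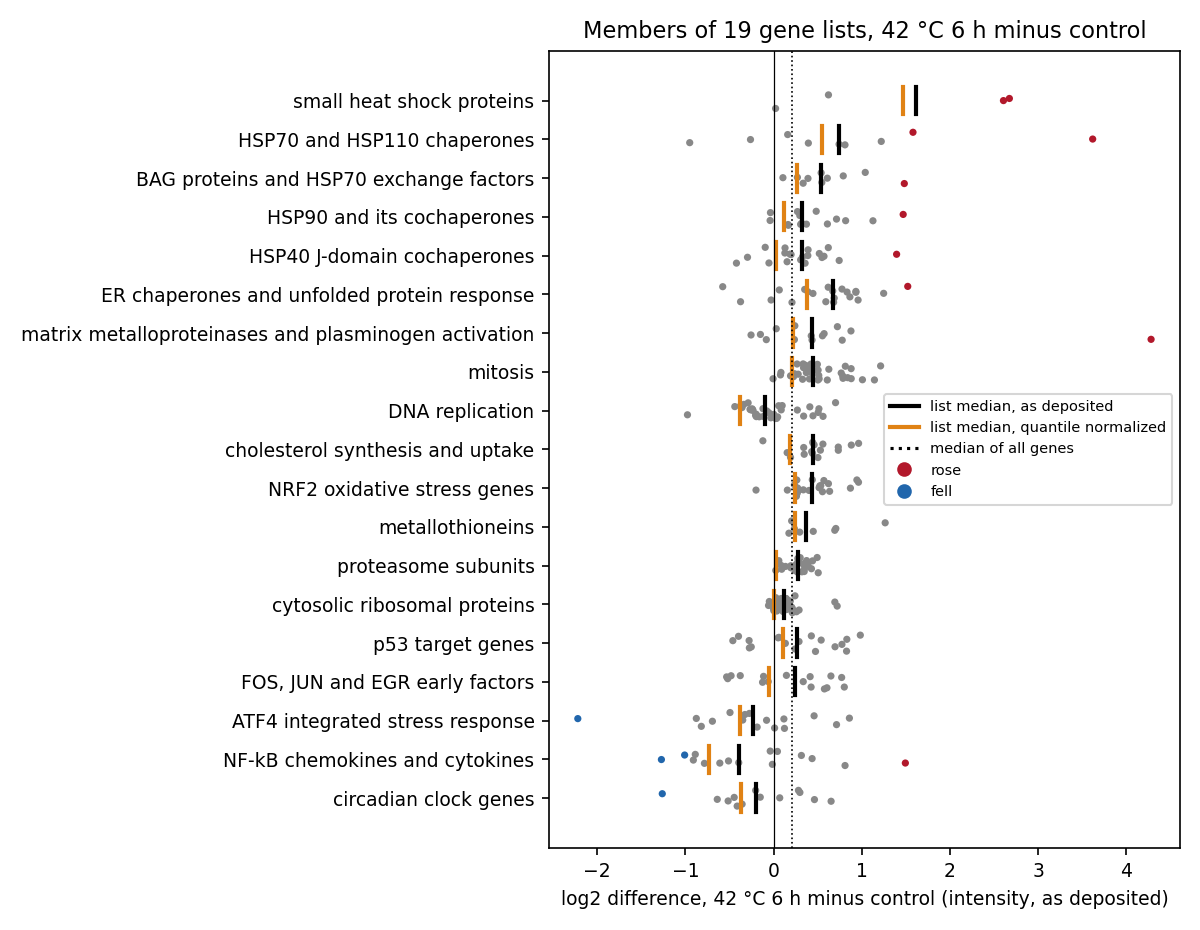
Log2 difference, 6 h minus control, of each gene in range (points) for 19 gene lists, with the list median as deposited (black bar) and after quantile normalization (orange bar), and the median of all genes as deposited (dotted line). Red and blue points rose or fell under all 3 scalings. The small heat shock protein list lies farthest right, and the ATF4, NF-kB and circadian clock lists lie left of the dotted line.

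Of 8 TXNIP and arrestin-domain genes 2 rose and none fell, where 1.55% of all genes rose and 2.23% fell. The list median was 0.25, with 4 members above the all-gene median. TXNIP, which blocks glucose uptake and thioredoxin, read 3434 on the 6 h array and 949 on the control array (3.62-fold), and its other 2 probe sets differed by 1.68 and 1.94. ARRDC3, its relative that acts on membrane receptors, read 253 on the 6 h array and 55.5 on the control array (4.56-fold). ARRDC4, the third glucose-responsive relative, read 432 at 6 h against 194 in the control (1.16 as deposited, 0.86 when quantile normalized and 0.88 when median shifted). SLC2A3, a glucose transporter of the hypoxia and glycolysis list, read 58.9 at 6 h and was below the floor in the control (at least 2.76-fold), the 1 riser among 27. NRF2 oxidative stress genes had a median of 0.44, with 19 of 21 above the all-gene median and none past the criterion. In that list, HMOX1, heme oxygenase, read 41.6 at 6 h with its control value under the floor, while GCLM, TXNRD1 and SRXN1 differed by 0.52, 0.52 and 0.63. Of 8 metallothioneins 7 lay above the all-gene median, or 6 after quantile normalization, with MT1M highest at 428 at 6 h against 178 in the control (1.26 as deposited, 0.97 when quantile normalized and 0.98 when median shifted). SLC30A1, a zinc exporter chosen after its value was seen, rose 2.83-fold to 1353 at 6 h, against 478 in the control, and its second probe set differed by 2.49. Cholesterol genes had a median of 0.45, with 13 of 16 above the all-gene median and none past the criterion. NSDHL and HMGCS1, enzymes of the pathway, differed by 0.96 and 0.88.

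Of the early factors, KLF factors, BCL2 family genes and p53 targets, BMF alone met the criterion, where 1.55% of all genes rose and 2.23% fell. FOS read 33.5 at 6 h, after 129.6 at 0 h, and was below the floor in the control. EGR1 read 521 at 6 h against 747 in the control and JUN 1935 at 6 h against 1134 in the control. None of 16 FOS, JUN and EGR early factors met the criterion, and neither did any of 9 KLF factors, of which KLF3 read 194 at 6 h against 379 in the control (-0.96 as deposited, -1.24 when quantile normalized and -1.25 when median shifted). The other 3 KLF3 probe sets differed by only -0.11 to -0.026. GEM, a stress-induced small GTPase that acts on calcium channels, rose 2.58-fold, with 188 on the 6 h array and 73.1 on the control array, after 917 at 0 h. Among 12 pro-apoptotic BCL2 family genes BMF was below the floor at 6 h, against 49.3 in the control (lower by at least 2.31-fold), and BCL2L11, which encodes BIM, read 257 at 6 h against 109 in the control (1.23 as deposited, 0.97 when quantile normalized and 0.95 when median shifted). Of its other 6 probe sets 4 had the same sign. On the side of survival, BCL2L1 read 630.0 at 6 h against 279 in the control (1.17 as deposited, 0.90 when quantile normalized and 0.89 when median shifted), MCL1 differed by 0.42, and none of 10 met the criterion. APAF1, which assembles the apoptosome, read 211 at 6 h against 109 in the control (0.95). Its other 2 probe sets differed by 1.77 and, with the control below the floor, by at least 1.21. None of 18 p53 targets met the criterion, with MDM2 at 0.47 and GADD45A at -0.46.

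Of RNAs without a protein product, MALAT1, a long RNA held in nuclear speckles, rose 3.45-fold, with 3166 on the 6 h array and 919 on the control array. All 11 of its other probe sets were higher too, by 0.75 to 2.31. In the list of paraspeckle and other nuclear RNAs it was the 1 riser of 6, where 1.55% of all genes rose and 2.23% fell. The snoRNA host gene list had a median of 0.24. Among the 13 clock genes in range BHLHE41, a repressor in the clock, fell to 40 at 6 h, against 96 in the control, and the list median was -0.20. Its other probe set differed by 0.15.

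Large gene sets of basic cell functions had medians within 0.1 log2 units of that of all genes as deposited. Cytosolic ribosomal protein genes had a median of 0.11 over 46 genes, proteasome subunits 0.28 over 27, and nuclear genes of oxidative phosphorylation 0.23 over 43. The medians of mitochondrial ribosomal proteins, translation initiation factors, and SR proteins with hnRNPs and CLK kinases were 0.19, 0.19 and 0.18. Only 7 of the 46 ribosomal protein genes lay above the all-gene median as deposited and 5 after the median shift, but 25 after quantile normalization. None of these 6 lists had a member past the criterion, where 1.55% of all genes rose and 2.23% fell. ACTB and GAPDH, often used as references, differed by 0.14 and 0.14 as deposited and by -0.14 and -0.15 after the median shift.

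The falls named first are the 15 largest in genes that reached 4 times the floor on either array and whose probe sets in range all had the same sign. LINC00868, an RNA of unknown role, was below the floor at 6 h, at 14.1, against 115 in the control, lower by at least 5.38-fold. The zinc finger gene ZNF205 read 18.7 at 6 h against 114 in the control, and EEF2KMT, the methyltransferase of elongation factor 2, 14.6 at 6 h against 113 in the control. GPT, an alanine aminotransferase, read 17.5 at 6 h against 107 in the control, and ZDHHC14, a palmitoyltransferase, 5.36 at 6 h against 102 in the control, although the second ZDHHC14 probe set differed by -0.013. All of these were below the floor at 6 h, as were CHAC1, the sterol-binding OSBPL5, the actin regulator CARMIL3, the sorting nexin SNX8, LRRC61 and the fucosyltransferase FUT7. LINC02352 was brighter, with 41.2 on the 6 h array and 189 on the control array (4.58-fold). C5orf34, the mitochondrial RNA methyltransferase MRM1 and the membrane progesterone receptor PAQR8 fell 3.9-fold, 3.66-fold and 3.6-fold. The second PAQR8 probe set differed by -1.08. Among brighter falls, chosen after their values were seen, SLFN5, an interferon-induced nuclear protein, read 81.2 on the 6 h array and 253 on the control array (3.12-fold), and its other 5 probe sets all lay lower, by -1.17 to -0.29. APOE, the lipid carrier apolipoprotein E, read 36.3 on the 6 h array and 127 on the control array (3.51-fold), and the transcription factor USF2 83.8 on the 6 h array and 205 on the control array (2.45-fold). The other 2 APOE probe sets, both below the floor at 6 h, differed by -1.26 and -0.096 with the floor applied. The other 2 USF2 probe sets differed by only -0.31 and -0.02.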

How the data were processed

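The values are probe set intensities deposited by the authors for 54675 probe sets on each of 7 arrays, on a linear scale. They were computed from the scans by an algorithm not given in the sources used here. The labelling began with 5 µg of total RNA, per the labels. All columns belong to the study (0 of other samples). Values were taken to log2 after raising those under the pooled median of 21.4 to it. Of the probe sets, 41097 list 1 gene, 1801 several and 11777 none, and symbols were updated by gene identifier. Of a gene's own probe sets, the one brightest on average over the arrays (mean log2) stands for it, giving 19775 genes, 13092 in range. A gene rose or fell at 1 log2 unit as deposited, after quantile normalization over all arrays, and after a shift to a common median over 20902 probe sets. Python 3.11.15, numpy 2.4.6 and pandas 2.3.3 were used. The array is the unit, with 1 per condition, so folds compare those arrays and carry no error.

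Named genes are the 15 largest rises and falls in bright genes whose probe sets have the same sign, list members past the criterion, the outermost member each way of each list, and 26 preset genes. The other named genes were chosen after their values were seen: SERPINH1, ZFAND2A, CLU, RGS2, CA2, TGFBR3, FZD1, SLC30A1, TLR3, AHRR, SLFN5, APOE, TENM2, USF2, LTB, BDKRB1, RBMS3, ZNF559, ZNF518A, ZNF765, CCNB1, CCNB2, HMMR, CDK1, PLK1, AURKA, KIF20A, TOP2A, MCM2, MCM3, MCM5, MCM6, MCM7, RRM2, CDT1, HSPA4, HSPA9, HSPA2, HSPA1L, HSPD1, HSPE1, HSP90AB1, DNAJA1, DNAJB4, HSP90B1, PDIA4, SDF2L1, SEL1L, XBP1, TRIB3, SLC7A11, CEBPB, CXCL1, IL1A, IL1B, NFKBIA, TNFAIP3, MMP1, MMP10, PLAU, JUN, GCLM, TXNRD1, SRXN1, HMGCS1, MDM2 and MCL1. The comparison, the 66 gene lists and the naming rule were chosen with earlier results of these data known. Alternatives were each scaling alone, another floor, no floor, the mean of probe sets and, added after seeing the data, scaling on the poly-A controls.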

Additional observations from a re-analysis of the deposited data

How the results depend on the processing

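Under all 3 scalings 203 genes rose. Other settings called 575 as deposited alone, 110 with the floor at 2 times the pooled median, 575 without a floor and 113 with the mean of probe sets. Quantile normalization alone, the median shift alone and scaling on the poly-A controls alone gave 300, 204 and 190. Under all 3 scalings 292 genes fell. Other settings called 506 with the median shift alone, 80 with the higher floor, 874 without a floor, 134 with the mean of probe sets and 813 with the poly-A scaling alone, against 303 as deposited and 372 after quantile normalization alone. NFKBIB had the opposite sign, 0.35, with the mean of its probe sets. The list medians changed sign for 24 of 67 lists (the ZNF set included) after quantile normalization, 32 after the median shift and 44 after the poly-A scaling, so they are read against all genes and not against 0. The poly-A scaling was chosen after seeing the data. No paired analysis was possible because each condition had 1 array. Low signal limits the falls, since 156 of the 292 genes were below the floor at 6 h, and their folds are minima.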

Other observations

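The genes of this paragraph belong to no list and were chosen after their values were seen. RGS2, which ends signalling of G protein-coupled receptors, read 1236 on the 6 h array and 312 on the control array (3.96-fold), after 3390.4 on the 42 °C 0 h array. CA2, a carbonic anhydrase, read 192 on the 6 h array and 45.9 on the control array (4.19-fold). TGFBR3, the coreceptor betaglycan, read 191 at 6 h against 49.9 in the control and FZD1, a Wnt receptor, 156 at 6 h against 42.4 in the control, each with its second probe set higher as well, by 1.22 and 0.58 log2 units. TLR3, a sensor of double-stranded RNA, read 173 at 6 h against 61 in the control, and AHRR, a repressor of the dioxin receptor, 171 at 6 h against 61 in the control. CA2, TGFBR3 and TLR3 had read 47.1, 63.9 and 61 at 0 h. Among genes that fell were BDKRB1, a kinin receptor, at 75 at 6 h against 178 in the control, and RBMS3, an RNA-binding protein, at 42.5 at 6 h against 107 in the control, with its other 3 probe sets lower too.

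Zinc finger genes named ZNF, taken as a set after their values were seen, held 20 risen and 7 fallen genes among 348 in range, or 5.75% and 2.01%, where 1.55% and 2.23% of all genes rose and fell. Their median difference was 0.47 log2 units as deposited and 0.26 after quantile normalization, against 0.20 and -0.018 for all genes. ZNF765 was the brightest riser, at 612 on the 6 h array and 214 on the control array, and its second probe set differed by 1.34. ZNF559 read 453 at 6 h against 121 in the control and ZNF518A 177 at 6 h against 53.4 in the control. Of the ZBTB relatives, ZBTB6 rose 2.51-fold to 264 at 6 h, against 105 in the control, and the median of 22 members was 0.59. The ZNF set was chosen on these values, so its counts are a description only.

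Probe sets of 1 chaperone gene often differed from each other, and the dim ones lay on either side of the bright ones. The bright HSPD1 probe sets differed by 0.44 and 0.47. Of the dim ones, 1 read 405 at 6 h against 57.6 in the control (2.81), and the other 2 differed by 0.60 and -0.25. The dimmest HSPH1 probe set read 711 at 6 h against 141 in the control (2.33), above the 1.22 of the brightest. DNAJA1 differed by 0.39 on its brighter and 1.01 on its dimmer probe set. For HSPB8 the second probe set differed by less, 0.27 against 2.61. For HSPA6 the second probe set gave 2.11 with the floor applied. The first gave at least 3.62, as it read below the floor in the control. The 2 dim FKBP4 probe sets differed by -0.033 and -0.54, against 1.47 on the brightest. The cause was not tested.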
